A study of Homo sapiens with 27 samples.

Results

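The 10 genes described here, KLK2, KLK3, KLK4, ACPP, FOLH1, TMPRSS2, STEAP2, SLC45A3, FKBP5 and PMEPA1, were listed as classic androgen-regulated genes of the prostate, and all but FKBP5 encode secreted or membrane proteins. They were taken by their names from the 20268 protein-coding genes of the series, not by their values, and all 10 were found in each of the 4 count tables. To determine how loss of CPSF1 alters the use of poly(A) sites, the study applied Poly(A)-ClickSeq (PAC-seq), which sequences the point where an mRNA ends and its poly(A) tail begins, to 27 libraries of 3 human prostate cancer cell lines. LNCaP is hormone-sensitive, and LNCaP95, a derivative of LNCaP, and 22Rv1 are hormone-insensitive. Each line was infected with lentivirus for a control shRNA (CTRL sh) or for CPSF1 sh1 or CPSF1 sh2, each a separate shRNA against CPSF1, then selected with puromycin and plated at 500000 cells per well for 72 h, with 3 libraries (BR1 to BR3) in each of the 9 groups. All groups thus carried an integrated shRNA vector and had passed puromycin selection, and each line is a single established line, with no labels to say whether BR1 to BR3 were infected separately. LNCaP and 22Rv1 cells grew in RPMI 1640 and LNCaP95 cells in the same medium without phenol red, all with 10% FBS, and no group is labeled as given or deprived of androgen.

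Androgens are steroid hormones that maintain the luminal cells of the prostate, and they raise the transcription of genes with androgen response elements near them. KLK2, KLK3 and KLK4 encode secreted kallikrein proteases, KLK3 being prostate-specific antigen (PSA), and ACPP encodes prostatic acid phosphatase. FOLH1 encodes prostate-specific membrane antigen (PSMA), TMPRSS2 a membrane serine protease, STEAP2 a metalloreductase and SLC45A3 the transporter prostein. FKBP5 encodes a cochaperone of steroid receptors and PMEPA1 a membrane protein that restrains TGF-β signaling. The 3′ end of such mRNAs is made when the cleavage and polyadenylation specificity factor (CPSF), of which CPSF1 is a scaffold subunit, binds the hexamer AAUAAA or a variant and the transcript is cut a short distance downstream.

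These hexamers are shown first and were sought just before the last annotated 3′ end of each gene. In the last 40 bases before the annotated 3′ end (the end of the counted 3′ UTR region less its 300-base extension, GRCh37), AATAAA or, failing that, ATTAAA was searched on the strand of the gene. Of all 19540 genes with a counted 3′ UTR, 57.7% held AATAAA, 13.3% held only ATTAAA and 29.0% held neither. Among the 10 genes, 8 held AATAAA, SLC45A3 held ATTAAA and STEAP2 held neither of these letters in this window. Each line below gives 30 bases, 5′ to 3′, with the hexamer in capitals.
KLK2, chr19:51383794-51383823, plus strand: AATAAAactgaatcttgttttcagacctta
KLK3, chr19:51363991-51364020, plus strand: ctcacagaAATAAAgagctgttatactgtg
KLK4, chr19:51409608-51409637, minus strand: agatccagaAATAAAgtctaagagaagcgc
ACPP, chr3:132087113-132087142, plus strand: taaattataAATAAActttttatttagcta
FOLH1, chr11:49168187-49168216, minus strand: tatttgaAATAAAgttgaatattatatata
TMPRSS2, chr21:42836488-42836517, minus strand: tatcatgcaAATAAAttatgcaattttttt
STEAP2, chr7:89867422-89867451, plus strand: gctaccctgttgtcctaaagagtttctgct
SLC45A3, chr1:205626979-205627008, minus strand: gacaaaATTAAAggctttcttatatgttta
FKBP5, chr6:35541362-35541391, minus strand: ttaAATAAAtccaaaaaaaatgtgacttcc
PMEPA1, chr20:56223448-56223477, minus strand: acAATAAAttttacaattctttggaatgag
The hexamer ended 15 to 25 bases before the annotated end in the 9 genes that held it. A hexamer match is a description of the sequence and was not tested as a site of cleavage.

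Reads were counted per gene in the 3′ UTR, the 10 kb downstream of the gene without exons of the same strand, introns and CDS. The 3′ UTR count took every annotated 3′ UTR segment of a gene, not its last end alone. There were 17 such segments in FOLH1, over chr11:49167887-49229424, 4 each in KLK2 and KLK3, 3 in KLK4 and 2 each in ACPP, STEAP2 and FKBP5. Which segment a change in the 3′ UTR count came from cannot be told. Within a gene, CDS and 3′ UTR regions could share bases. In each of the 10 genes, the 3′ UTR, introns and CDS together covered more bases than the gene with its extension. In KLK2, KLK3, KLK4, ACPP, FOLH1 and STEAP2 the excess was larger than shared bases at the borders of introns could give. In the other genes it was no larger than that. Reads in shared bases entered both counts, and sums over the 4 tables more than once. Several of these regions also touched other genes. KLK3, KLK2 and KLK4 lie near each other on chromosome 19, KLK3 and KLK2 on the plus strand and KLK4 on the minus strand. The 10 kb region of KLK3 (chr19:51364320-51374319) shared 9145 bases with the counted introns of KLK2, so the same reads entered both counts. The introns of STEAP2 shared 7217 bases with the 10 kb region of STEAP1, and the 10 kb region of STEAP2 shared 2894 bases with introns of C7orf63. An exon of the noncoding gene KLKP1 shared 72 bases with the 10 kb region of KLK4 (chr19:51399309-51409308), and 568 bases of exons of an unnamed noncoding gene lay within that of FKBP5 (chr6:35531063-35541062). FOLH1 has a near-identical copy, FOLH1B, and reads that both could give are uncertain.

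Libraries held 3452413 to 12425417 reads over the 4 tables, with 1725670 to 6549383 in 3′ UTRs and 170330 to 728430 in 10 kb regions, and 22Rv1 CTRL sh BR1 was the shallowest. Levels are given as CPM (read counts of a table over the effective size of its library, with TMM factors set over the 27 libraries). The luminal markers HOXB13, KRT8 and KRT18 were above 2 CPM in the controls of each line, and no basal (KRT5, KRT14, TP63) or leukocyte marker (PTPRC, CD3E) was. Of the neuroendocrine markers, SYP was above 2 CPM in all 3 lines and CHGA in 22Rv1 cells, where the 4 markers summed to 46.9 to 67.3 CPM in the controls and 46.7 to 61.0 in the knockdown libraries. The stromal genes COL1A1 and VIM were also above 2 CPM in all 3 lines. The 3 stromal markers summed to 30.1 to 32.4 CPM in the 22Rv1 controls and 36.4 to 47.8 with knockdown, without overlap, to 44.4 to 59.6 and 39.9 to 47.0 CPM in LNCaP and to 75.9 to 84.2 and 82.1 to 129 CPM in LNCaP95. The 3 basal markers summed to 1.02 to 1.97 and 2.05 to 6.63 CPM in LNCaP and 0.558 to 2.67 and 2.78 to 5.43 CPM in LNCaP95, also without overlap, and the 3 luminal markers to 1628 to 1961 and 1167 to 1690.1 CPM in LNCaP95, with overlap. The part of these sums in the results below was not tested. CPSF1 was lower in 6 of 6 knockdown libraries of each line in the 3′ UTR table, with log2 changes of -1.19 ± 0.17, adjusted p = 8.31e-05 in LNCaP, -1.05 ± 0.18, adjusted p = 0.000301 in LNCaP95 and -0.73 ± 0.14, adjusted p = 0.0164 in 22Rv1 (edgeR quasi-likelihood F-test, Benjamini-Hochberg adjusted over all genes, as for every adjusted p below, with changes given ± SE).

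The lines differed widely in these genes before knockdown, and among the 10 the widest gap was in KLK3. The 3′ UTR level of KLK3 was 1698, 1634 and 1803 CPM in the 3 LNCaP controls, 4328, 3932 and 4402 in the LNCaP95 controls and 34.9, 32.0 and 47.1 in the 22Rv1 controls. LNCaP95 cells were highest and 22Rv1 cells lowest, without overlap. In these bulk libraries, fewer cells that express a gene and less RNA per cell cannot be told apart. The protease gene TMPRSS2 followed the same order, with 102, 148 and 131 CPM in LNCaP cells, 206, 257 and 207 in LNCaP95 and 5.18, 16.6 and 12.4 in 22Rv1. FOLH1 did too, with 513, 692 and 650.2 CPM in LNCaP cells, 967, 1108 and 1011 in LNCaP95 and 90.6, 173 and 183 in 22Rv1. The TMPRSS2 difference between LNCaP95 and LNCaP (0.81 ± 0.21, adjusted p = 0.00604) did not pass with reads summed over the 4 tables (0.29, adjusted p = 0.0622). The 22Rv1 level of KLK3 was lower than that of LNCaP by a log2 difference of -5.46 ± 0.17 (adjusted p = 8.42e-13) and lower than that of LNCaP95 by -6.76 ± 0.18 (adjusted p = 5.93e-14).

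FKBP5 and PMEPA1 had another order, lowest in LNCaP cells. The FKBP5 level was 61.7, 57.4 and 50.8 CPM in LNCaP cells, 276, 271 and 286 in LNCaP95 and 247, 346 and 347 in 22Rv1, and the last 2 lines overlapped (0.19 ± 0.15, adjusted p = 0.311; adjusted p = 0.0333 without 22Rv1 CTRL sh BR1). PMEPA1 had 96.6, 64.7 and 72.3 CPM in LNCaP cells, 284, 281 and 366 in LNCaP95 and 542, 478 and 488 in 22Rv1, each line above the one before it. KLK2 did not pass the test between LNCaP (320.3, 355 and 359.6 CPM) and LNCaP95 (363, 299 and 351; -0.035 ± 0.14, adjusted p = 0.865) and was lower in 22Rv1 (99.6, 86.0 and 87.7; -1.92 ± 0.15 against LNCaP, adjusted p = 1.74e-08). KLK4 was lowest in LNCaP95 (207, 201 and 230.2 CPM, against 326, 295 and 400.5 in LNCaP and 459, 368 and 278 in 22Rv1), and LNCaP and 22Rv1 did not pass the test against each other (0.11 ± 0.18, adjusted p = 0.62). STEAP2 was highest in LNCaP (546, 546 and 536 CPM), then LNCaP95 (277, 342 and 259) and lowest in 22Rv1 (209, 211 and 189.9).

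SLC45A3 passed the test between no pair of lines, with 128, 180.2 and 146 CPM in LNCaP cells, 152, 156 and 158 in LNCaP95 and 126, 108 and 182 in 22Rv1, and log2 differences of 0.035 ± 0.19, -0.11 ± 0.19 and -0.15 ± 0.19 (adjusted p from 0.524 to 0.901). ACPP was measured on few reads, with 64, 48 and 76 reads in the LNCaP controls, 108, 150 and 126 in LNCaP95 and 5, 34 and 47 in 22Rv1. Its difference between 22Rv1 and LNCaP (-0.92 ± 0.34, adjusted p = 0.0357) was lost without LNCaP CTRL sh BR1 (adjusted p = 0.11), LNCaP CTRL sh BR3 (0.127) or 22Rv1 CTRL sh BR1 (0.0705). The difference between LNCaP95 and LNCaP (0.66 ± 0.30, adjusted p = 0.0936) passed without 22Rv1 CTRL sh BR1 (adjusted p = 0.0291).

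Over the 10 genes, 5 were higher and 2 lower in LNCaP95 than in LNCaP controls, where 19.1% of all 11501 genes tested were higher and 20.2% lower. In 22Rv1 against LNCaP, 2 were higher and 6 lower, against 23.9% and 23.2% of all genes. In 22Rv1 against LNCaP95, 2 were higher and 6 lower, against 28.1% and 26.5%. The median log2 differences of the 10 genes were 0.70, -1.17 and -1.05 in that order, and those of all genes -0.0045, 0.015 and 0.022. These 3 comparisons use the same 9 control libraries in turn.

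**Figure D1:**
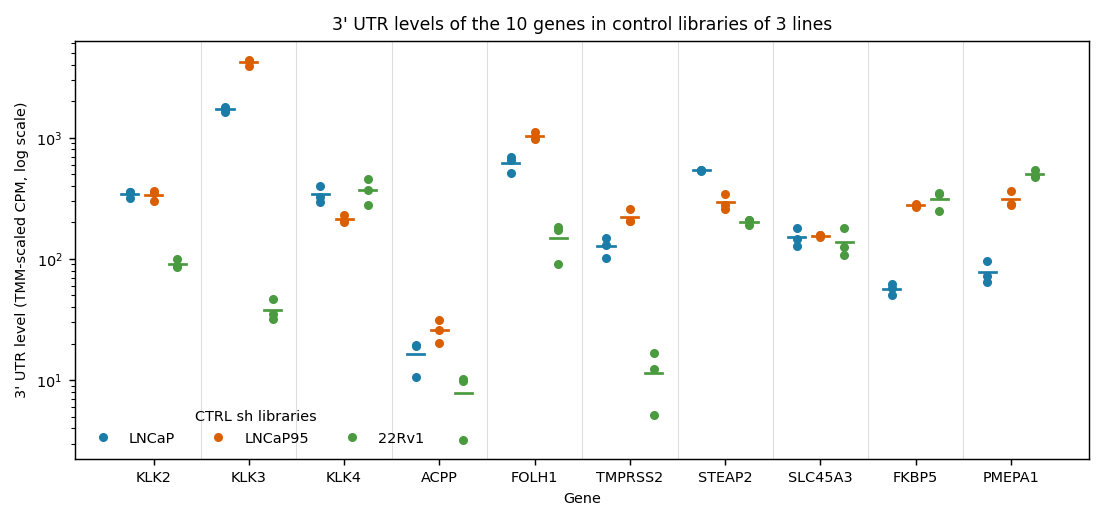
Level in the 3′ UTR table (TMM-scaled CPM, log axis) of the 10 genes in the 3 CTRL sh libraries of each line; points are libraries and bars their means. KLK3 spans from 32.0 to 47.1 CPM in 22Rv1 cells to 3932 to 4402 CPM in LNCaP95 cells, whereas FKBP5 and PMEPA1 are lowest in LNCaP cells and SLC45A3 overlaps in the 3 lines.

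To determine how reads in the annotated 3′ UTRs of these genes responded to knockdown, the 3 controls were compared with the 6 knockdown libraries of each line in the 3′ UTR table. KLK3 fell in LNCaP and LNCaP95 cells and did not pass the test in 22Rv1 cells. Its level in LNCaP cells was 1698, 1634 and 1803 CPM in the controls, 395, 361 and 442 with CPSF1 sh1 and 314, 411 and 416 with CPSF1 sh2. In LNCaP95 cells it was 4328, 3932 and 4402 CPM in the controls, 1560.3, 1069.5 and 1901 with CPSF1 sh1 and 1507, 1259 and 1181 with CPSF1 sh2. Knockdown and control libraries did not overlap in either line, with log2 changes of -2.12 ± 0.12, adjusted p = 2.46e-09 in LNCaP and -1.57 ± 0.15, adjusted p = 7.06e-07 in LNCaP95. In 22Rv1 cells, where KLK3 was low, the level was 34.9, 32.0 and 47.1 CPM in the controls, 40.9, 48.0 and 49.1 with CPSF1 sh1 and 57.2, 47.3 and 51.5 with CPSF1 sh2, and the change did not pass the test (0.34 ± 0.16, adjusted p = 0.343). The response of 22Rv1 cells differed from that of LNCaP by 2.49 ± 0.22 (adjusted p = 2.72e-09) and from that of LNCaP95 by 1.93 ± 0.22 (adjusted p = 2.22e-07). The difference between LNCaP95 and LNCaP was 0.56 ± 0.20 (adjusted p = 0.0749).

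KLK4, another kallikrein, also fell in LNCaP and LNCaP95 cells. In LNCaP cells it was at 326, 295 and 400.5 CPM in the controls, 178, 165 and 231 with CPSF1 sh1 and 154, 249.8 and 252 with CPSF1 sh2. In LNCaP95 cells it was at 207, 201 and 230.2 CPM in the controls, 97.4, 156 and 86.1 with CPSF1 sh1 and 178, 84.7 and 92.1 with CPSF1 sh2. The arms overlapped in neither line (-0.72 ± 0.16, adjusted p = 0.00433 and -0.88 ± 0.20, adjusted p = 0.00336). In 22Rv1 cells the arms overlapped, at 278 to 459 CPM in the controls and 256 to 445 with knockdown (-0.18 ± 0.19, adjusted p = 0.744). KLK2, a protease that can activate pro-KLK3, fell in LNCaP95 cells (-0.38 ± 0.13, adjusted p = 0.0352) from 363, 299 and 351 CPM to 229.7 to 312 CPM, with 5 of 6 knockdown libraries below all controls. That call was lost without LNCaP95 CTRL sh BR1 (adjusted p = 0.158), CTRL sh BR3 (0.119), CPSF1 sh2 BR2 (0.0786) or CPSF1 sh2 BR3 (0.0795), and the sum of KLK2 reads over the 4 tables moved by 0.012 on the log2 scale (adjusted p = 0.956). KLK2 did not pass in LNCaP (-0.22 ± 0.12, adjusted p = 0.244) or 22Rv1 cells (0.070 ± 0.12, adjusted p = 0.857). ACPP passed in no line, with changes from -0.90 ± 0.34 in 22Rv1 to -0.0076 ± 0.17 in LNCaP95.

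Of the membrane proteins, FOLH1 and TMPRSS2 fell steeply in LNCaP95 cells. FOLH1 was at 967, 1108 and 1011 CPM in the controls, 534, 467 and 509 with CPSF1 sh1 and 454, 443 and 493 with CPSF1 sh2 in that line, with every knockdown library below every control (-1.09 ± 0.12, adjusted p = 2.42e-06). In LNCaP cells its arms overlapped, at 513, 692 and 650.2 CPM in the controls, 767, 769.7 and 562 with CPSF1 sh1 and 727, 463 and 654 with CPSF1 sh2 (0.10 ± 0.16, adjusted p = 0.698). In 22Rv1 cells they overlapped too, at 90.6 to 183 CPM in controls and 104 to 198 with knockdown (0.054 ± 0.21, adjusted p = 0.939). The FOLH1 response of LNCaP95 cells differed from that of LNCaP by -1.18 ± 0.24 (adjusted p = 0.00166), and that of 22Rv1 differed from LNCaP95 by 1.15 ± 0.25 (adjusted p = 0.00242).

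TMPRSS2 was at 206, 257 and 207 CPM in the controls, 101, 75.3 and 75.2 with CPSF1 sh1 and 31.6, 56.7 and 50.3 with CPSF1 sh2 in LNCaP95 cells, again without overlap (-1.77 ± 0.22, adjusted p = 1.38e-05). In LNCaP cells it was at 102, 148 and 131 CPM in the controls, 102, 135 and 74.2 with CPSF1 sh1 and 119.96, 70.2 and 67.8 with CPSF1 sh2, where the arms overlapped (-0.41 ± 0.20, adjusted p = 0.175), and the responses of these 2 lines differed by -1.35 ± 0.34 (adjusted p = 0.00973). Summed over the 4 tables, TMPRSS2 reads did fall in LNCaP cells (-0.68, adjusted p = 0.00045). In 22Rv1 cells TMPRSS2 was at 5.18 to 16.6 CPM in the controls (8, 55 and 59 reads) and 3.85 to 7.20 CPM with knockdown (18 to 46 reads). The arms overlapped, with 2 of 6 knockdown libraries below all controls, a change of -1.10 ± 0.30, adjusted p = 0.0834. That change passed without 22Rv1 CTRL sh BR1, the shallowest library (adjusted p = 0.0105), and with DESeq2 (adjusted p = 0.0302). With reads summed over the 4 tables, the 22Rv1 change of TMPRSS2 also passed (-0.69, adjusted p = 0.0368). STEAP2, a metalloreductase, fell in LNCaP95 cells, from 277, 342 and 259 CPM to 174 to 248 CPM (-0.53 ± 0.14, adjusted p = 0.00791; adjusted p = 0.0616 without LNCaP95 CTRL sh BR2). In LNCaP cells STEAP2 was below all controls in 6 of 6 knockdown libraries, at 546, 546 and 536 against 272 to 506 CPM, with an adjusted p just over the threshold (-0.45 ± 0.16, adjusted p = 0.054) that passed without CPSF1 sh1 BR1 (0.0403) or BR2 (0.0173). SLC45A3 passed in no line (-0.14 ± 0.13, -0.19 ± 0.13 and -0.25 ± 0.15 in LNCaP, LNCaP95 and 22Rv1).

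FKBP5 and PMEPA1, the 2 genes that started lowest in LNCaP cells, rose there. FKBP5 was at 61.7, 57.4 and 50.8 CPM in the controls, 124, 127 and 135 with CPSF1 sh1 and 119, 92.8 and 99.0 with CPSF1 sh2 in LNCaP cells (1.05 ± 0.15, adjusted p = 0.000102). In LNCaP95 cells it was at 271 to 286 CPM in controls and 212 to 269.7 with knockdown (-0.13 ± 0.12, adjusted p = 0.433), and in 22Rv1 cells at 247 to 347 and 203 to 264 CPM (-0.39 ± 0.13, adjusted p = 0.17; adjusted p = 0.0201 without 22Rv1 CTRL sh BR1). PMEPA1 was at 96.6, 64.7 and 72.3 CPM in the controls, 158, 154 and 149 with CPSF1 sh1 and 112, 129 and 152 with CPSF1 sh2 in LNCaP cells (0.89 ± 0.16, adjusted p = 0.000753). Its changes in LNCaP95 (0.11 ± 0.15, adjusted p = 0.59) and 22Rv1 (-0.26 ± 0.12, adjusted p = 0.364) did not pass. In LNCaP cells, 6 of 6 knockdown libraries lay above all controls for both genes. The responses of both genes differed between LNCaP and each other line, for FKBP5 by -1.18 ± 0.18 in LNCaP95 (adjusted p = 5.53e-05) and -1.42 ± 0.18 in 22Rv1 (adjusted p = 6.23e-06), and for PMEPA1 by -0.77 ± 0.20 (adjusted p = 0.0142) and -1.13 ± 0.20 (adjusted p = 0.000873). The PMEPA1 call between LNCaP95 and LNCaP was lost without LNCaP CTRL sh BR2 (adjusted p = 0.0658), LNCaP CTRL sh BR3 (0.053) or LNCaP95 CTRL sh BR3 (0.0505).

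**Figure D2:**
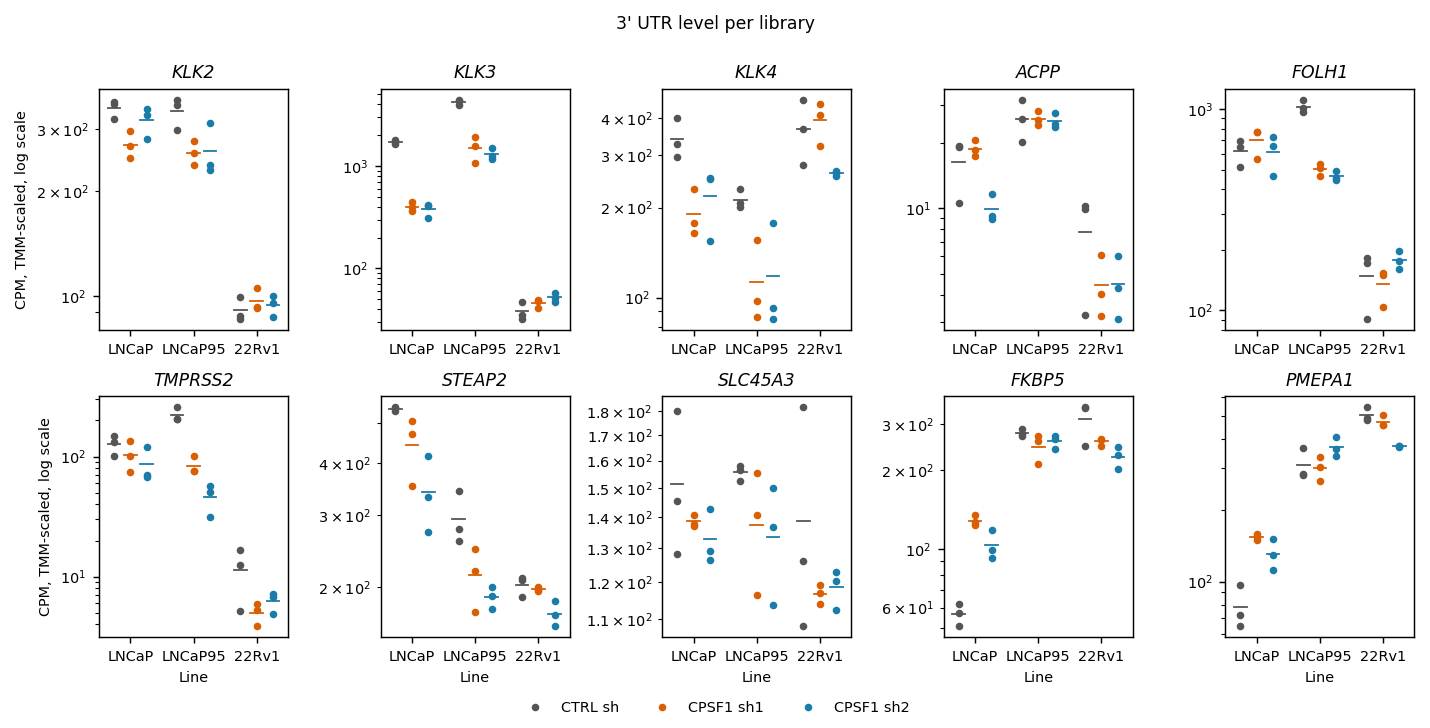
3′ UTR level (TMM-scaled CPM, log axes that differ between panels) of each gene in every library; points are libraries, bars are group means and colors the shRNA. In LNCaP and LNCaP95 cells the KLK3 and KLK4 points of both CPSF1 shRNAs lie below the controls, and in LNCaP cells alone among the lines the FKBP5 and PMEPA1 points of all 6 knockdown libraries lie above them.

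Counted over the 10 genes, 2 rose and 2 fell in LNCaP cells, where 8.24% of all genes rose and 10.1% fell. In LNCaP95 cells none of the 10 rose and 6 fell, against 15.2% and 15.2% of all genes. In 22Rv1 cells none of the 10 passed with edgeR, against 0.678% and 0.791%, while 4 had an unadjusted p under 0.05 and DESeq2 called 1, TMPRSS2. Without 22Rv1 CTRL sh BR1, edgeR called 3 in that line (ACPP, TMPRSS2 and FKBP5). For LNCaP, LNCaP95 and 22Rv1 the 10 genes had median log2 changes of -0.18, -0.46 and -0.21, and all genes 0.015, 0.014 and -0.0083. As a test of the difference itself, the response differed between LNCaP95 and LNCaP for 4 of the 10 genes against 9.58% of all genes, between 22Rv1 and LNCaP for 3 against 5.11%, and between 22Rv1 and LNCaP95 for 2 against 10.7%. The last count was 4 without LNCaP95 CPSF1 sh2 BR1, and these comparisons share libraries.

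The 2 shRNAs were then compared with each other in the 3′ UTR table. With edgeR and with DESeq2, 0 of the 10 genes differed between CPSF1 sh2 and CPSF1 sh1 in any line, with 3, 1 and 2 genes at an unadjusted p under 0.05 in LNCaP, LNCaP95 and 22Rv1. Of all genes, 0.0363% differed in LNCaP, 0% in LNCaP95 and 0.0522% in 22Rv1 cells with edgeR, where the unadjusted counts were 880, 746 and 1299 and DESeq2 called 26, 3 and 82. TMPRSS2 was the gene at an unadjusted p under 0.05 in LNCaP95 cells, and its gap there, 101, 75.3 and 75.2 CPM with sh1 against 31.6, 56.7 and 50.3 with sh2, was -0.84 ± 0.20 on the log2 scale (adjusted p = 0.471).

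The use of poly(A) sites beyond the annotated ends was then examined in the 10 kb table. KLK2, PMEPA1 and FKBP5 rose there in all 3 lines, also when libraries were scaled by their reads over the 4 tables with TMM factors taken from 3′ UTRs. PMEPA1 had almost no downstream reads in the controls. It held 2, 1 and 0 reads in the LNCaP controls, 4, 3 and 4 in LNCaP95 and 0, 2 and 5 in 22Rv1. With knockdown it held 13, 24 and 24 reads (CPSF1 sh1) and 27, 22 and 40 (CPSF1 sh2) in LNCaP cells. In LNCaP95 cells these were 70, 137 and 88 and 137, 158 and 111 reads, and in 22Rv1 cells 111, 75 and 135 and 191, 168 and 157. Since no LNCaP control held more than 3 reads, the fold there is a lower bound against a floor of 3 reads per control library, at least 6.49-fold higher (68.2 CPM against a floor of 10.5; edgeR adjusted p = 1.09e-07). The log2 change was 4.09 ± 0.41, adjusted p = 6.46e-14 in LNCaP95 and 4.49 ± 0.41, adjusted p = 6.70e-18 in 22Rv1. Without 22Rv1 CTRL sh BR3, which held 5 of these reads, the latter was 5.38.

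KLK2 was at 0, 41.7 and 7.12 CPM in the controls, 154, 172 and 137 with CPSF1 sh1 and 228, 135 and 291 with CPSF1 sh2 in LNCaP cells. In LNCaP95 cells it was at 52.1, 11.3 and 71.1 CPM in the controls, 538, 754 and 428 with CPSF1 sh1 and 641, 442 and 446 with CPSF1 sh2. In 22Rv1 cells it was at 0, 15.7 and 2.75 CPM in the controls, 19.7, 26.2 and 39.5 with CPSF1 sh1 and 47.9, 61.6 and 56.9 with CPSF1 sh2. Every knockdown library lay above every control of its line, and the log2 changes were 3.40 ± 0.39, adjusted p = 5.38e-13 in LNCaP, 3.48 ± 0.34, adjusted p = 7.90e-15 in LNCaP95 and 2.67 ± 0.61, adjusted p = 0.000867 in 22Rv1. The sizes in LNCaP and 22Rv1 rest on few control reads, 0, 13 and 2 in LNCaP and 0, 4 and 1 in 22Rv1. Without LNCaP CTRL sh BR2 the KLK2 change was 5.54, and without 22Rv1 CTRL sh BR2 it was 4.36. Leaving out 1 library at a time, it ranged from 2.87 to 5.54 in LNCaP and from 2.16 to 4.36 in 22Rv1 and passed each time. With CPSF1 sh1 alone, the 22Rv1 change of KLK2 did not pass (2.18, adjusted p = 0.0797). FKBP5 in LNCaP cells was at 115.9, 83.5 and 71.2 CPM in the controls, 275, 227 and 205 with CPSF1 sh1 and 279, 184 and 302 with CPSF1 sh2. Its level in LNCaP95 cells was 178, 192 and 204 CPM in the controls, 669.7, 1117 and 714 with CPSF1 sh1 and 892, 771 and 808 with CPSF1 sh2. In 22Rv1 cells it was 272, 327 and 316 CPM in the controls, 628, 651 and 599 with CPSF1 sh1 and 569, 667 and 792 with CPSF1 sh2. The FKBP5 arms did not overlap in any line (1.43 ± 0.27, adjusted p = 8.60e-06 in LNCaP, 2.05 ± 0.27, adjusted p = 8.34e-10 in LNCaP95 and 1.03 ± 0.20, adjusted p = 3.41e-05 in 22Rv1). The FKBP5 response in 22Rv1 differed from that in LNCaP95 by -1.03 ± 0.31 (adjusted p = 0.034). That call was lost without LNCaP95 CTRL sh BR1, BR2 or BR3, LNCaP95 CPSF1 sh1 BR2, 22Rv1 CTRL sh BR2 or BR3, 22Rv1 CPSF1 sh1 BR3 or 22Rv1 CPSF1 sh2 BR1 (adjusted p = 0.0905, 0.0558, 0.055, 0.0603, 0.0838, 0.0875, 0.0525 and 0.0517).

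STEAP2, FOLH1 and TMPRSS2 rose downstream in some lines. STEAP2 rose in LNCaP cells from 97.2, 112 and 178 CPM to 172 to 299 CPM (0.90 ± 0.25, adjusted p = 0.00547) and in 22Rv1 cells from 5.22, 23.6 and 24.7 CPM to 60.9 to 85.8 CPM (1.94 ± 0.40, adjusted p = 0.000179). The LNCaP call was lost without CTRL sh BR1 (adjusted p = 0.079) or BR2 (0.0599), and that of LNCaP95 (0.63 ± 0.29, adjusted p = 0.0994) passed without CTRL sh BR1 (0.0338). FOLH1 rose in LNCaP95 cells, from 288, 586 and 578 CPM to 868 to 1319 CPM (1.14 ± 0.25, adjusted p = 0.00016), the line in which its 3′ UTR level fell. In LNCaP cells FOLH1 was already at 1429, 1528 and 1335 CPM in the controls and at 1555 to 2131 with knockdown (0.26 ± 0.19, adjusted p = 0.387), and it passed when libraries were scaled by their reads over the 4 tables (0.78, adjusted p = 0.000693). The FOLH1 response of 22Rv1 cells (-0.12 ± 0.19) differed from that of LNCaP95 by -1.25 ± 0.30 (adjusted p = 0.00374; 0.0611 without LNCaP95 CTRL sh BR1 and 0.0533 without 22Rv1 CTRL sh BR3).

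TMPRSS2 rose in LNCaP cells from 56.1, 93.1 and 35.6 CPM to 86.0 to 162 CPM (0.98 ± 0.32, adjusted p = 0.0193), with 5 of 6 knockdown libraries above all controls, and that call was lost without CTRL sh BR1 (adjusted p = 0.0859) or BR3 (0.22). It did not pass in LNCaP95 (-0.58 ± 0.32, adjusted p = 0.169) or in 22Rv1 cells, where every library held at most 10 reads. KLK3 passed in no line, with 89.0 to 173 CPM in controls and 98.2 to 160.5 with knockdown in LNCaP (0.011 ± 0.28, adjusted p = 0.987) and 306 to 396 and 323 to 746 in LNCaP95 (0.39 ± 0.25, adjusted p = 0.26). Scaled by reads over the 4 tables, KLK3 rose in LNCaP95 cells (1.29, adjusted p = 3.19e-05). ACPP was called lower in 22Rv1 cells, from 10, 31 and 18 reads in the controls, where BR2 was highest, to 10.8 to 38.3 CPM against 49.4 to 122 (-1.47 ± 0.37, adjusted p = 0.00253), and the call was lost without CTRL sh BR2 (adjusted p = 0.241) and with the scaling over the 4 tables (-0.91, adjusted p = 0.0843). Its response differed between 22Rv1 and LNCaP95 by -2.48 ± 0.65 (adjusted p = 0.01; 0.0652 without LNCaP95 CTRL sh BR3 and 0.116 without 22Rv1 CTRL sh BR2).

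KLK4 and SLC45A3 were called lower in the LNCaP 10 kb table, but both calls depended on scaling and on single libraries. KLK4 was at 1739, 1884 and 1587 CPM in the controls, 1157, 1074 and 1498 with CPSF1 sh1 and 1043, 1085 and 1506 with CPSF1 sh2, a change of -0.52 ± 0.18, adjusted p = 0.0338 that turned to 0.0056 (adjusted p = 0.989) when libraries were scaled by their reads over the 4 tables. SLC45A3 was at 71.1, 67.4 and 103 CPM in the controls, 30.9, 17.2 and 47.0 with CPSF1 sh1 and 33.6, 53.2 and 53.9 with CPSF1 sh2 (-1.03 ± 0.37, adjusted p = 0.0438), and with that scaling its change was -0.50 (adjusted p = 0.431). Without LNCaP CTRL sh BR1, BR2 or BR3, CPSF1 sh1 BR1 or BR2, or CPSF1 sh2 BR1, the adjusted p of KLK4 was 0.108, 0.17, 0.0605, 0.0715, 0.0579 and 0.0919 and that of SLC45A3 0.0729, 0.0655, 0.268, 0.0817, 0.101 and 0.0851. In 22Rv1 cells KLK4 was higher in 6 of 6 knockdown libraries, at 748 to 902 against 548 to 646 CPM (0.46 ± 0.18, adjusted p = 0.0851). That change passed with DESeq2 (0.39, adjusted p = 0.036) and with the scaling over the 4 tables (0.97, adjusted p = 1.35e-05). The KLK4 response in 22Rv1 differed from that of LNCaP by 1.02 ± 0.28 (adjusted p = 0.0491) and of LNCaP95 by 0.94 ± 0.29 (adjusted p = 0.0438). With the scaling over the 4 tables neither difference passed (0.99, adjusted p = 0.0725 and 0.56, adjusted p = 0.295).

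**Figure D3:**
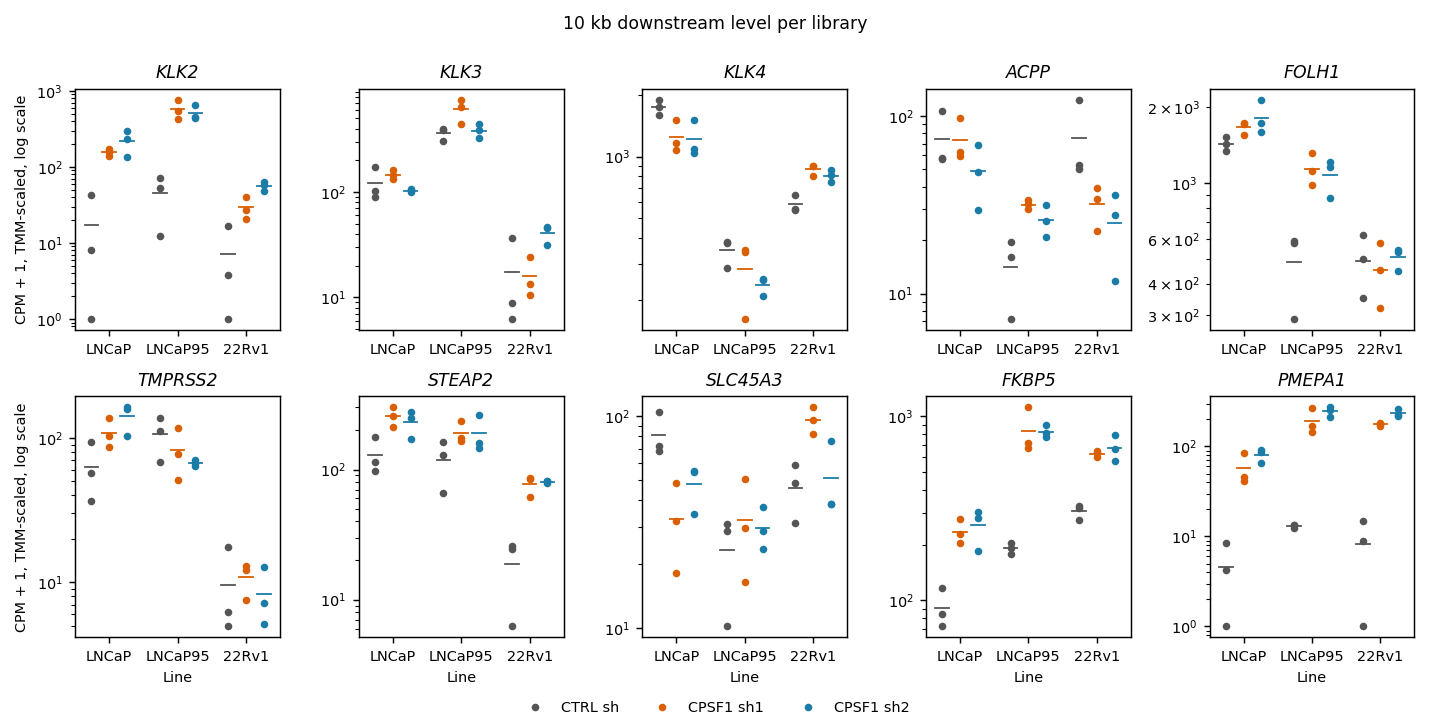
Level in the 10 kb downstream table (TMM-scaled CPM plus 1, log axes that differ between panels) of each gene in every library; points are libraries, bars are group means and colors the shRNA. The KLK2, FKBP5 and PMEPA1 points of both CPSF1 shRNAs lie above the controls in all 3 lines, PMEPA1 from 11.3 to 12.4 CPM to 144 to 271 CPM in LNCaP95 cells.

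In the 10 kb table as a whole, 5 of the 10 genes rose and 2 were lower in LNCaP cells, against 9.52% and 5.2% of all genes. Without LNCaP CTRL sh BR1, BR2 or BR3 the LNCaP count of 7 became 3, 4 and 4. In LNCaP95 cells 4 rose and none fell, against 17.6% and 10.1%. In 22Rv1 cells 4 rose and 1 was lower, against 7.26% and 2.73%. The median log2 change of the 10 genes was 0.58, 0.82 and 0.60 in LNCaP, LNCaP95 and 22Rv1, and that of all genes 0.13, 0.22 and 0.19. With the scaling over the 4 tables, the median of all genes moved to 0.62, 1.11 and 0.73 and that of the 10 genes to 1.09, 1.74 and 1.16. With that scaling, 6, 7 and 6 of the 10 genes rose in LNCaP, LNCaP95 and 22Rv1 and none fell. The share of all genes called with that scaling was not computed, so these counts cannot be read as particular to the 10 genes. With genes required to be over 2 CPM in every library, which left 8 of the 10 in LNCaP and in 22Rv1, the median was 0.070 in LNCaP and 0.42 in 22Rv1, and 3 genes were called in 22Rv1. The response in the 10 kb table differed between LNCaP95 and LNCaP for 0 of the 10 genes with edgeR (4 at an unadjusted p under 0.05, and 2, FOLH1 and TMPRSS2, with DESeq2) against 2.48% of all genes. It differed between 22Rv1 and LNCaP for 1, KLK4, against 1%, a call lost when any of 18 of the 27 libraries was left out. Between 22Rv1 and LNCaP95 it differed for 4 against 4.15%, and without 22Rv1 CTRL sh BR2 or BR3 for 1.

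Downstream reads were then set against 3′ UTR reads within libraries and the change of this ratio tested, to set the use of downstream sites against that of sites in annotated 3′ UTRs. The ratio rose for KLK2 in LNCaP (3.70 ± 0.51, adjusted p = 6.53e-06), LNCaP95 (3.93 ± 0.39, adjusted p = 3.06e-09) and 22Rv1 (2.59 ± 0.66, adjusted p = 0.0131; lost without 22Rv1 CTRL sh BR1 or BR3, adjusted p = 0.0527 and 0.142). Without CTRL sh BR2 the KLK2 value was 5.81 in LNCaP and 4.39 in 22Rv1. The ratio of PMEPA1 rose by 3.99 ± 0.43 in LNCaP95 and 4.78 ± 0.48 in 22Rv1 (5.70 without 22Rv1 CTRL sh BR3), and it also passed in LNCaP (adjusted p = 0.00202), where the controls held 0 to 2 downstream reads and no size is given. It rose for STEAP2 by 1.40 ± 0.32, 1.19 ± 0.34 and 2.09 ± 0.41 in LNCaP, LNCaP95 and 22Rv1 (adjusted p at most 0.00886 for PMEPA1 and STEAP2 in the 3 lines, and 0.072 for STEAP2 without LNCaP95 CTRL sh BR3). For KLK3, whose 3′ UTR level fell, the ratio rose in LNCaP (2.16 ± 0.33, adjusted p = 2.66e-05) and LNCaP95 (1.94 ± 0.34, adjusted p = 4.34e-05) and did not pass in 22Rv1 (0.21 ± 0.60, adjusted p = 0.874). The KLK3 10 kb reads are shared with KLK2 introns.

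The ratio of TMPRSS2 rose in LNCaP (1.47 ± 0.40, adjusted p = 0.0146; 0.134 without LNCaP CTRL sh BR3) and LNCaP95 (1.25 ± 0.39, adjusted p = 0.0155; 0.126 without LNCaP95 CTRL sh BR2). FKBP5 passed in LNCaP95 (2.18 ± 0.31, adjusted p = 1.79e-06) and 22Rv1 (1.41 ± 0.27, adjusted p = 0.000728) and not in LNCaP (0.39 ± 0.34, adjusted p = 0.517), where its 3′ UTR level rose as well. FOLH1 passed in LNCaP95 (2.27 ± 0.31, adjusted p = 1.13e-06). KLK4, ACPP and SLC45A3 passed in no line with each table's own scaling. With libraries scaled by their reads over the 4 tables, the ratio of KLK4 rose in LNCaP95 (1.45, adjusted p = 0.00499) and 22Rv1 (1.25, adjusted p = 0.00361). ACPP then rose in LNCaP95 (2.00, adjusted p = 0.00463), and SLC45A3 in LNCaP95 (1.57, adjusted p = 0.0153) and 22Rv1 (1.48, adjusted p = 0.0239). With each table's own scaling, the ratio rose for 5 of the 10 genes in LNCaP against 8.39% of all genes, for 7 in LNCaP95 against 21.2%, and for 4 in 22Rv1 against 6.58%. It fell for none, against 1.95%, 6.77% and 0.813%. The median change of the ratio was 0.89, 1.59 and 0.87 for the 10 genes and 0.30, 0.53 and 0.33 for all genes in the 3 lines.

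**Figure D4:**
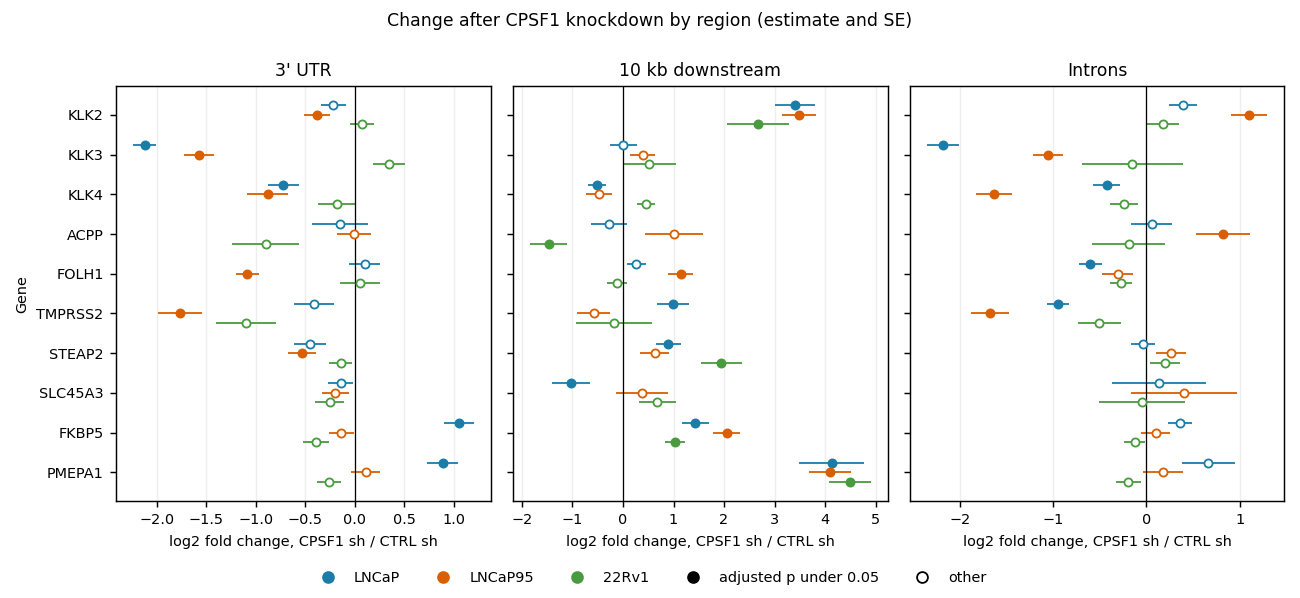
Log2 fold change after knockdown (x axes, ± SE, which differ between panels) of each gene in the 3′ UTR, 10 kb and intron tables; colors are lines and filled points passed at an adjusted p under 0.05. KLK3 lies at -2.12 in LNCaP 3′ UTRs and near 0 in the LNCaP 10 kb table, whereas KLK2, FKBP5 and PMEPA1 are filled and above 0 in the 10 kb panel for all 3 lines. The LNCaP 10 kb point of PMEPA1 rests on 0 to 2 reads in each control.

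As a share of each gene's own reads over the 4 tables, which no scaling between libraries touches, the downstream reads are given as a description with no test of their own. For FKBP5 they made up 5.19% ± 1.22 of the reads in LNCaP controls and 11.6% ± 2.35 with knockdown (SD, n = 3 and 6). In LNCaP95 cells the FKBP5 share was 2.83% ± 0.313 and 20.2% ± 4.23, and in 22Rv1 cells 5.03% ± 0.631 and 16.0% ± 2.80. The share of KLK2 went from 0.623% ± 0.425 to 13.7% ± 2.99 in LNCaP95 cells and that of FOLH1 from 1.56% ± 0.494 to 10.3% ± 1.91. For KLK3 it was 0.489% ± 0.18 and 2.88% ± 0.264 in LNCaP and 0.502% ± 0.0523 and 3.93% ± 1.79 in LNCaP95 cells. KLK4 already had 23.4% ± 3.65 of its reads downstream in LNCaP controls, and 32.8% ± 1.69 with knockdown, in a region that holds KLKP1. In all these shares, reads in bases common to CDS and 3′ UTR regions entered the total more than once. The same share over all genes was not computed, so these values cannot be read as particular to the 10 genes.

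**Figure D5:**
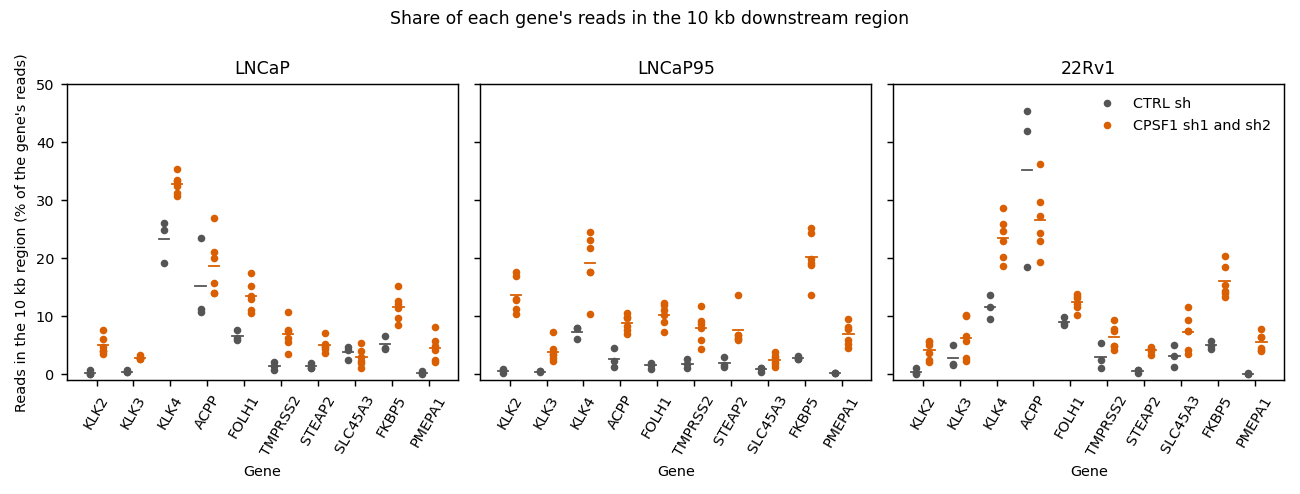
Share of each gene's reads over the 4 tables that fell in its 10 kb downstream region (y axis, percent), by line; points are libraries and bars their means. In LNCaP95 cells the FKBP5 share is 2.83% ± 0.313 in the controls and 20.2% ± 4.23 in the knockdown libraries.

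KLK3 and TMPRSS2 introns fell in LNCaP and LNCaP95 cells. KLK3 introns in LNCaP cells were at 111, 113 and 124 CPM in the controls, 31.2, 22.3 and 26.7 with CPSF1 sh1 and 24.7, 10.1 and 27.9 with CPSF1 sh2 (-2.18 ± 0.18, adjusted p = 1.77e-10). In LNCaP95 cells they were at 362, 231 and 317 CPM in the controls, 146, 107 and 184 with CPSF1 sh1 and 146, 141 and 145 with CPSF1 sh2 (-1.06 ± 0.16, adjusted p = 1.55e-05). TMPRSS2 introns fell from 425, 332 and 377 CPM to 173 to 217 CPM in LNCaP (-0.95 ± 0.12, adjusted p = 9.27e-07) and from 359, 249.99 and 273 CPM to 49.7 to 139 CPM in LNCaP95 cells (-1.68 ± 0.21, adjusted p = 5.68e-07). For both genes no knockdown library overlapped the controls in either line. KLK4 introns fell in LNCaP95 cells, from 147, 112 and 134 CPM to 22.3 to 53.9 CPM (-1.63 ± 0.19, adjusted p = 2.85e-07). In LNCaP cells they fell too (-0.43 ± 0.14, adjusted p = 0.04), a call lost without LNCaP CTRL sh BR1, BR2 or BR3, CPSF1 sh1 BR1 or BR2, or CPSF1 sh2 BR1 (adjusted p = 0.191, 0.0586, 0.106, 0.101, 0.0566 and 0.0602). FOLH1 introns fell in LNCaP cells, from 1627, 1880.1 and 1807 CPM to 1056 to 1271 CPM (-0.60 ± 0.12, adjusted p = 0.000677), where its 3′ UTR did not pass, and their change was -0.31 ± 0.17, adjusted p = 0.194 in LNCaP95, where 6 of 6 libraries lay below the controls.

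KLK2 introns rose in LNCaP95 cells, at 138, 129 and 163 CPM in the controls, 325, 465 and 219 with CPSF1 sh1 and 296, 258 and 273 with CPSF1 sh2 (1.10 ± 0.19, adjusted p = 9.71e-05), while its 3′ UTR level fell there. Of the 14780 counted KLK2 intron bases, 9145 are shared with the 10 kb region of KLK3, and which gene these reads come from cannot be told apart. ACPP introns rose in LNCaP95 cells, from 16, 19 and 32 reads in the controls to 14.8 to 21.6 CPM against 7.15 to 14.5 (0.82 ± 0.29, adjusted p = 0.038), a call lost without LNCaP95 CTRL sh BR1, CTRL sh BR2, CPSF1 sh1 BR1, CPSF1 sh2 BR1 or CPSF1 sh2 BR3 (adjusted p = 0.204, 0.091, 0.0702, 0.068 and 0.0517) and with library sizes summed over the 4 tables (0.11).

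Among introns, none of the 10 genes rose and 4 fell in LNCaP cells, against 8.7% and 5.62% of all genes, and 2 rose and 3 fell in LNCaP95, against 13% and 10.8%. In LNCaP, 7 of the 10 had an unadjusted p under 0.05. FKBP5 introns were above all controls there in 6 of 6 knockdown libraries, with an adjusted p just over the threshold (0.36 ± 0.13, adjusted p = 0.0505). Their change passed with DESeq2 (adjusted p = 0.0412) and with genes over 2 CPM in every library (0.029). In 22Rv1 introns 0 passed with edgeR and with DESeq2 (2 at an unadjusted p under 0.05), against 2.62% and 1.75%. The median change was 0.013, 0.14 and -0.17 for the 10 genes and 0.016, 0.0019 and -0.016 for all genes. The ratio of intron to 3′ UTR reads rose for 3 genes in LNCaP95, KLK2 (1.46 ± 0.25), STEAP2 (0.81 ± 0.21) and FOLH1 (0.78 ± 0.22), against 14.1% of all genes called either way. It passed with edgeR for 0 genes in LNCaP (4 at an unadjusted p under 0.05, 2 without LNCaP CPSF1 sh2 BR2 and 1 without CPSF1 sh2 BR3) and 0 in 22Rv1 (0), against 3.69% and 0.422%. The FOLH1 ratio was lost without LNCaP95 CTRL sh BR1, BR2 or BR3 (adjusted p = 0.0805, 0.05 and 0.0524) and the STEAP2 ratio without CTRL sh BR1 (0.0999).

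Of the 10 genes, KLK2, KLK3, FOLH1, STEAP2 and FKBP5 were abundant enough to test in the CDS table. The CDS regions of KLK2, KLK3, FOLH1 and STEAP2 share bases with their 3′ UTR regions, so their changes here are not independent of those in 3′ UTRs. In LNCaP cells KLK3 fell from 114 ± 11.8 to 52.5 ± 16.6 CPM (-1.09 ± 0.23, adjusted p = 0.0026) and FKBP5 rose from 5.95 ± 3.02 to 24.9 ± 8.81 CPM (2.04 ± 0.47, adjusted p = 0.00595; 0.0646 without LNCaP CTRL sh BR1), the directions of their 3′ UTRs. In LNCaP95 cells KLK2 fell from 124 ± 35.9 to 58.4 ± 8.0 CPM (-1.07 ± 0.21, adjusted p = 0.00116) and STEAP2 from 17.1 ± 7.21 to 5.06 ± 2.45 CPM (-1.72 ± 0.49, adjusted p = 0.0193; 0.149 and 0.0581 without LNCaP95 CTRL sh BR2 or BR3). These 2 genes in each line compare with 7.1% and 12.5% of all genes called either way. In 22Rv1 cells 0 of the 5 passed with edgeR and with DESeq2 (1 at an unadjusted p under 0.05), against 1.01%.

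A further list of 20 androgen response genes was counted beside these 10. In 3′ UTRs, 8 rose and 2 fell of 18 tested in LNCaP, 5 rose and 7 fell of 19 tested in LNCaP95 and 1 rose and 1 fell of 16 tested in 22Rv1 cells. The shares of all genes that rose were 8.24%, 15.2% and 0.678% in these lines, and those that fell 10.1%, 15.2% and 0.791%. The gene named in all 3 lines was NNMT, a nicotinamide methyltransferase. It rose from 1.15 ± 1.38 CPM in the controls to 11.02 ± 4.94 CPM in LNCaP (3.33 ± 0.60, adjusted p = 0.000827), from 0.205 ± 0.355 CPM in the controls to 6.09 ± 2.25 CPM in LNCaP95 (at least 10.1-fold higher against a floor of 3 reads per control library, adjusted p = 5.26e-05) and from 1.43 ± 0.554 CPM in the controls to 7.37 ± 1.0 CPM in 22Rv1 (2.49 ± 0.38, adjusted p = 0.00311). In LNCaP cells the transcription factor MAF rose from 21.7 ± 2.66 CPM in the controls to 158 ± 27.4 CPM (2.88 ± 0.19, adjusted p = 1.47e-08) and the elongation cofactor gene EAF2 rose from 1.25 ± 0.735 CPM in the controls to 6.71 ± 3.10 CPM (2.46 ± 0.51, adjusted p = 0.00259). In LNCaP95 cells the hypoxia- and androgen-responsive gene NDRG1 fell from 1863 ± 201 CPM in the controls to 417 ± 122 CPM (-2.16 ± 0.19, adjusted p = 2.93e-07) and the centromere gene CENPN fell from 492 ± 47.2 CPM in the controls to 199 ± 23.1 CPM (-1.30 ± 0.13, adjusted p = 8.36e-07). In 22Rv1 cells the elongation factor ELL2 fell from 196 ± 10.9 CPM in the controls to 137 ± 8.73 CPM (-0.52 ± 0.11, adjusted p = 0.0244).

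In the 10 kb table, 5 rose and 1 fell of 18 tested of this list in LNCaP, 5 rose and 1 fell of 20 tested in LNCaP95 and 2 rose and 0 fell of 16 tested in 22Rv1. Of all genes, 9.52%, 17.6% and 7.26% rose there and 5.2%, 10.1% and 2.73% fell, in the same order. NNMT also rose downstream in LNCaP (4.15 ± 0.45, adjusted p = 4.15e-14), LNCaP95 (2.26 ± 0.47, adjusted p = 8.16e-05) and 22Rv1 (at least 9.53-fold higher, adjusted p = 1.52e-11). NDRG1 rose downstream in LNCaP by at least 1.39-fold (adjusted p = 0.0405), from 0 or 1 read in the controls to 1 to 13. In LNCaP95 the drug and prostaglandin exporter ABCC4 (3.16 ± 0.43, adjusted p = 4.05e-09) and the acyl-CoA synthetase ACSL3 (2.62 ± 0.46, adjusted p = 3.11e-06) rose, and C1orf116 rose in LNCaP (2.05 ± 0.38, adjusted p = 1.11e-05) and 22Rv1 (1.65 ± 0.33, adjusted p = 8.63e-05). The median log2 change of the tested genes of this list was 0.43, -0.052 and 0.015 in 3′ UTRs of LNCaP, LNCaP95 and 22Rv1, and 0.48, 0.61 and 0.38 in 10 kb regions. The medians of all genes were 0.015, 0.014 and -0.0083 in 3′ UTRs and 0.13, 0.22 and 0.19 in 10 kb regions.

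The profile of the 10 genes over the 9 groups was last compared with that of other genes. Each gene's mean log2 3′ UTR level per group was centered and scaled and averaged over the 10 genes. The 5 other genes with the highest Pearson correlation to this mean, of 8782 with at least 10 CPM on average, were DIRC2 (r = 0.987), SLC11A1 (r = 0.982), PGRMC2 (r = 0.981), MRPL17 (r = 0.979) and BNIP3 (r = 0.979). The 10 genes did not share 1 profile. KLK2, KLK3, ACPP, FOLH1, TMPRSS2 and SLC45A3 correlated with the mean of the other 9 at r of 0.817 to 0.925, STEAP2 at 0.421, and KLK4, FKBP5 and PMEPA1 at -0.56, -0.42 and -0.595. These are descriptions over 9 groups that share lines and libraries.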

How the data were processed

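PAC-seq libraries of 3 human prostate cancer lines were analyzed as 9 groups of 3, taken with their replicate numbers from the sample titles. The authors deposited raw counts of reads per gene in 4 tables, with no normalization and replicates kept apart. Per the labels and the methods of the study, reads were filtered and stripped of poly(A) tails with DPAC, aligned to the hg19 genome (GRCh37) with HISAT2 2.1.0, and counted on the strand of the gene by their 3′-most base with featureCounts (Subread). The submitters' processing notes give Subread 2.0.3, and the methods of the study name another version. Regions came from Ensembl GRCh37 protein-coding genes, with 3′ UTRs extended by 300 bases. Internal priming at A-rich sequence could enter the intron and 10 kb counts. The column of every library was matched by its title, with 0 columns left over.

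Counts were tested in edgeR 4.0.16 (R 4.3.3, quasi-likelihood F-test), with library sizes and TMM factors taken from the table tested. Genes needed a mean above 2 CPM, and Benjamini-Hochberg adjustment over all genes tested was used with a threshold of 0.05. For knockdown, 3 controls were compared with the 6 knockdown libraries of a line. Controls were compared between lines in a fit of 9 libraries, and responses between lines as line-by-knockdown terms over 27 libraries. Ratios to the 3′ UTR were tested as region-by-knockdown terms with library as a factor, and CPSF1 sh2 against CPSF1 sh1 in a fit with 3 groups per line. SE is the absolute log2 change divided by the square root of F. The models were run on simulated counts with known changes at a fixed dispersion, which checks the code and not these data. The pass mark for the share of changed genes recovered was lowered after the ratio test fell short of it.

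No replicate pair agreed within sampling noise (chi-square per degree of freedom 2.80 to 24.7 over 27 pairs), and p-values measure the spread between these libraries, which may be technical. Floors of 3 reads cover counting error only, because PCR copies cannot be told from independent molecules. Alternatives were DESeq2 1.42.0, other filters and scalings, each shRNA alone, the sum of the tables, a replicate block and leaving out each library. The named genes were the 10 genes, CPSF1, and in each line the 3 genes of the further androgen response list with the largest changes among those called, plus the 5 genes of most similar profile. The 10 genes and the lists were chosen with earlier results of these data known. Some genes of the lists and of this rule are not reported here. Sequences were read from the GRCh37 genome.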

Additional observations from a re-analysis of the deposited data

Results flagged for a closer look

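In 3 of 90 groups of 6 knockdown libraries, 1 library stood apart from the rest by Dixon's test, which chance gives in about 1 in 20 groups. CPSF1 sh2 BR1 was the highest for FOLH1 10 kb reads in LNCaP, at 2.13e+03 CPM against 1555 to 1726 in the other libraries. CPSF1 sh1 BR1 was the lowest for STEAP2 10 kb reads in 22Rv1, at 60.9 against 77.8 to 85.8 CPM. CPSF1 sh1 BR1 was the highest for PMEPA1 intron reads in LNCaP, at 32.7 against 16.9 to 19.7 CPM.

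The response to knockdown differed between lines, by a line-by-knockdown term in edgeR over the 27 libraries, for the following genes. In 3′ UTRs, the log2 difference of LNCaP95 from LNCaP was -1.18 ± 0.24 (adjusted p = 0.00166) for FOLH1, -1.35 ± 0.34 (adjusted p = 0.00973) for TMPRSS2, -1.18 ± 0.18 (adjusted p = 5.53e-05) for FKBP5 and -0.77 ± 0.20 (adjusted p = 0.0142) for PMEPA1. That of 22Rv1 from LNCaP was 2.49 ± 0.22 (adjusted p = 2.72e-09) for KLK3, -1.42 ± 0.18 (adjusted p = 6.23e-06) for FKBP5 and -1.13 ± 0.20 (adjusted p = 0.000873) for PMEPA1. That of 22Rv1 from LNCaP95 was 1.93 ± 0.22 (adjusted p = 2.22e-07) for KLK3 and 1.15 ± 0.25 (adjusted p = 0.00242) for FOLH1. In 10 kb regions, 22Rv1 differed from LNCaP for KLK4 by 1.02 ± 0.28 (adjusted p = 0.0491). It differed from LNCaP95 for KLK4 by 0.94 ± 0.29 (adjusted p = 0.0438), for ACPP by -2.48 ± 0.65 (adjusted p = 0.01), for FOLH1 by -1.25 ± 0.30 (adjusted p = 0.00374) and for FKBP5 by -1.03 ± 0.31 (adjusted p = 0.034). With 1 of the 27 libraries left out, the call of PMEPA1 between LNCaP95 and LNCaP 3′ UTRs was lost for 3 choices of that library, those between 22Rv1 and LNCaP95 in 10 kb regions for 2 (ACPP), 2 (FOLH1), 8 (FKBP5) and 11 (KLK4), and that of KLK4 between 22Rv1 and LNCaP for 18. The shared libraries make these differences dependent on each other.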

How the results depend on the processing

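Of the 105 changes after knockdown over the 10 genes, 4 tables and 3 lines, 8 calls were lost with CPSF1 sh1 alone, 4 lost and 1 gained with CPSF1 sh2 alone, 3 lost, 1 lost with a change of sign (KLK4 in LNCaP 10 kb regions) and 6 gained with reads over the 4 tables as library sizes, 2 lost and 1 gained without a filter, and 4 gained with DESeq2 (of 102). With each library scaled by its reads over the 4 tables, their median log2 change was 1.09 (LNCaP), 1.74 (LNCaP95) and 1.16 (22Rv1) in 10 kb regions, -0.28 (LNCaP) and 0.035 (22Rv1) in introns and -0.56 (LNCaP95) and -0.30 (22Rv1) in 3′ UTRs, and calls among them numbered 2 (LNCaP) and 1 (LNCaP95) in ratios of introns, 7 (LNCaP95) in 10 kb regions and 1 (LNCaP95 against LNCaP) and 0 (22Rv1 against LNCaP) in responses between lines in 10 kb regions. With CPSF1 sh1 alone, their median log2 change was -0.19 (LNCaP95) and -0.049 (22Rv1) in introns, -0.71 (LNCaP95) in CDS, -0.12 (22Rv1) in 3′ UTRs and 0.81 (22Rv1) in 10 kb regions, and calls among them numbered 1 (LNCaP) and 1 (LNCaP95) in CDS and 3 (22Rv1) in 10 kb regions. With CPSF1 sh2 alone, their median log2 change was -0.26 (LNCaP) in introns, -0.17 (LNCaP95) and 0.52 (22Rv1) in CDS, -0.34 (22Rv1) in 3′ UTRs and 0.78 (22Rv1) in 10 kb regions. With the sum of the 4 tables, their median log2 change was -0.32 (LNCaP95) and -0.12 (22Rv1) in 3′ UTRs, and calls among them numbered 1 (22Rv1) in 3′ UTRs. With genes over 2 CPM in every library, their median log2 change was 0.070 (LNCaP) and 0.42 (22Rv1) in 10 kb regions and -0.33 (22Rv1) in CDS, and calls among them numbered 1 (LNCaP95) in CDS and 3 (22Rv1) in 10 kb regions. Without a filter on low counts, their median log2 change was 0.11 (LNCaP95) in CDS. With DESeq2, calls among them numbered 1 (22Rv1) in 3′ UTRs and 2 (LNCaP95 against LNCaP) in responses between lines in 10 kb regions. With the replicate number as a block, calls among them numbered 0 (22Rv1 against LNCaP) and 2 (22Rv1 against LNCaP95) in responses between lines in 10 kb regions. Leaving out 1 library at a time, the medians ranged over 0.54 to 0.93 (22Rv1) and 0.64 to 0.92 (LNCaP95) in 10 kb regions, -0.28 to 0.66 (22Rv1) and -0.36 to 0.10 (LNCaP) in CDS and -0.21 to -0.067 (22Rv1) in introns, and the numbers of the 10 genes called over 3 to 7 (LNCaP) in 10 kb regions, 0 to 3 (22Rv1) in 3′ UTRs, 1 to 2 (LNCaP) and 1 to 2 (LNCaP95) in CDS, 0 to 2 (LNCaP) and 1 to 3 (LNCaP95) in ratios of introns, 0 to 1 (22Rv1 against LNCaP), 1 to 4 (22Rv1 against LNCaP95) and 0 to 2 (LNCaP95 against LNCaP) in responses between lines in 10 kb regions and 2 to 4 (22Rv1 against LNCaP95) in responses between lines in 3′ UTRs. The summed library sizes turned the 10 kb change of KLK4 in LNCaP to 0.0056, and the sum of the 4 tables turned the KLK2 change in LNCaP95 3′ UTRs to 0.012. Shares of all genes called with these settings are not given, so the counts show only how the calls of the 10 genes moved. The causes of these changes were not tested.

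Within a line, the replicate numbers did not clearly pair the libraries. Deviations of same-numbered libraries within a line correlated at r from -0.25 to 0.41, and 8 of 27 libraries correlated best with a library of their own number. Across the controls of the 3 lines, same-numbered pairs had a median r of 0.13, with 5 of 9 pairs over 0.1. Pairs of different number there had a median r of -0.085, with 5 of 18 over 0.1, so structure shared by replicate number may be present between lines. With the replicate block, KLK4 in LNCaP introns no longer passed (adjusted p = 0.0533) and STEAP2 in LNCaP 3′ UTRs passed (0.0497). Apart from these and 3 responses in 10 kb regions, it changed no other call. Genes with under about 10 reads in a library, such as TMPRSS2 and ACPP in 22Rv1, are limited by depth.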

Other observations

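The 20 further androgen response genes were also compared between the control libraries of the lines. In LNCaP95 against LNCaP, 9 were higher and 2 lower of 18 tested (median log2 difference 0.78), where 19.1% and 20.2% of all genes were. In 22Rv1 against LNCaP, 5 were higher and 9 lower (-0.76), against 23.9% and 23.2% of all genes, and in 22Rv1 against LNCaP95, 5 were higher and 11 lower (-1.17), against 28.1% and 26.5%. The medians of all genes were -0.0045, 0.015 and 0.022. These comparisons share the same 9 control libraries.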
